A study of Mus musculus with 4 samples.

Results

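The immunoglobulin variable (V) genes were followed as all genes of the count tables whose symbol starts with Ighv, Igkv or Iglv. These were 348 of 55450 gene IDs, with 346 symbols, and comprised 185 heavy chain genes (Ighv), 160 kappa light chain genes (Igkv) and 3 lambda light chain genes (Iglv). In GENCODE M21, the GRCm38 annotation that holds every gene ID of the tables, 216 of them are typed as functional V genes and 130 as V pseudogenes. Droplet-based single-cell RNA sequencing with 10x Genomics 3' v3 chemistry had been run on 4 libraries of wild-type mouse cells. The intestinal libraries came from untreated mice and from mice treated with NPs for 1 week, and the brain libraries from untreated mice and from mice treated with NPs for 2 months. The labels list BALB/c mice of 5 weeks and ICR mice of 6 months without assigning a strain to a tissue, do not spell out NPs, and give no number of animals. The series names colon where the samples say intestine, and cells were freed with enzymes and passed over dead-cell removal beads. With 1 library a group no difference could be set against a spread between animals, so no p-value was computed, and each interval is a 95% interval for counting error alone.

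A B cell assembles the variable part of each antibody chain by joining 1 V gene to a D and a J segment in the heavy chain, or to a J segment in a light chain. Allelic exclusion leaves most B cells with 1 productive heavy chain and 1 productive light chain, kappa or lambda, and all daughters of that cell inherit the same V genes. Plasma cells, the antibody-secreting end stage, fill the intestinal lamina propria and there mostly make IgA, while the healthy brain parenchyma holds very few of them. In a 3' library reads start at the polyadenylated end of the transcript, in the constant gene, so V genes are caught in a small share of molecules only.

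Many V genes are close copies of each other, and the results below turn on 6 such pairs. The last 180 bases of each coding sequence are given 5′ to 3′, from the GENCODE M21 transcripts (GRCm38), with capitals where the lower member of a pair differs from the upper one when both are aligned at their 3′ ends without gaps. Iglv1 (chr16:19085017-19085196, minus strand) was the V gene with most UMIs, and Iglv2 (chr16:19260401-19260580, minus strand) differs from it at 5 of these bases.
Iglv1: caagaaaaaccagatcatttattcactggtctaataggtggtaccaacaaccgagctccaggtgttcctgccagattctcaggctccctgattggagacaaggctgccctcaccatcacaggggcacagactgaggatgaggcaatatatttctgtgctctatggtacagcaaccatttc
Iglv2: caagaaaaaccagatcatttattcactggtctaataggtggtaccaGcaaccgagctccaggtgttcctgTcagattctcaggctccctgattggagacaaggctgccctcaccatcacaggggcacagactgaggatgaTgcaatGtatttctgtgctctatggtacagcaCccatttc
Igkv1-110 (chr6:68271088-68271267, plus strand) and Igkv1-117 (chr6:68121648-68121827, plus strand), which also differ at 5 bases, were the leading and runner-up kappa genes of the same cell more often than any other pair.
Igkv1-110: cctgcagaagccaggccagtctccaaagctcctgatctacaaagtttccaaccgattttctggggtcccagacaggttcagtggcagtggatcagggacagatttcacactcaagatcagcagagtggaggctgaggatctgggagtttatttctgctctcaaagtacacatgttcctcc
Igkv1-117: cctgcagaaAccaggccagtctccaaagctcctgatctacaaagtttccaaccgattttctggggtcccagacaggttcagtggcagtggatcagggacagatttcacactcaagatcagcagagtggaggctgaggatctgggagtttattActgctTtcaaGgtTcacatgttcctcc
Igkv3-10 (chr6:70573051-70573230, plus strand) and Igkv3-5 (chr6:70663716-70663895, plus strand) were next in that count and differ at 5 bases.
Igkv3-10: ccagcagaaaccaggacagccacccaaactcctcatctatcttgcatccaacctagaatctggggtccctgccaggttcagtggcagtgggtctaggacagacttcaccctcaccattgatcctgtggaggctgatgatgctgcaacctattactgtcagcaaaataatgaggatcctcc
Igkv3-5: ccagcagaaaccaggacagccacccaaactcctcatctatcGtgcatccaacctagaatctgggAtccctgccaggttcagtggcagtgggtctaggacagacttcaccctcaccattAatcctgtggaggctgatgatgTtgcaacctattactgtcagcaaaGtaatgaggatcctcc
Igkv3-4 (chr6:70672198-70672377, plus strand) and Igkv3-12 (chr6:70518670-70518849, plus strand), with 11 differences, led the kappa UMIs of 1 brain cell.
Igkv3-4: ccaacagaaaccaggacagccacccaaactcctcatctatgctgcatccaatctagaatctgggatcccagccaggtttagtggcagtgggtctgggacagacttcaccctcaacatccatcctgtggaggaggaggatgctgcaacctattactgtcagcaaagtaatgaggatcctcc
Igkv3-12: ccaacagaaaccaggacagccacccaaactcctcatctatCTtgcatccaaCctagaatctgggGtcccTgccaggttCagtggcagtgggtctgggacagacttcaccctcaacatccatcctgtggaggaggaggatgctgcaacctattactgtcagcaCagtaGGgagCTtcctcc
Ighv9-3 (chr12:114140692-114140871, minus strand) and Ighv9-1 (chr12:114093928-114094107, minus strand), with 11 differences, and Ighv14-3 (chr12:114059845-114060024, minus strand) and Ighv14-2 (chr12:113994469-113994648, minus strand), with 8, were the commonest such heavy chain pairs.
Ighv9-3: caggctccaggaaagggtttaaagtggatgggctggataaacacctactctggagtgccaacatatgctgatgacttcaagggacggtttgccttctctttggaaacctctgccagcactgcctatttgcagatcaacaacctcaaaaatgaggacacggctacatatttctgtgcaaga
Ighv9-1: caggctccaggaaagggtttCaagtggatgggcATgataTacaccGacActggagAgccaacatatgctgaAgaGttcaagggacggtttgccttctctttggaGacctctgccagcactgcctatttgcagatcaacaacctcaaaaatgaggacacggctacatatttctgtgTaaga
Ighv14-3: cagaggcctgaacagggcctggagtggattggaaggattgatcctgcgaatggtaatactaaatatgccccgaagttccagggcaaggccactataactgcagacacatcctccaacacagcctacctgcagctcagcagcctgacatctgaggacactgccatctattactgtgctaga
Ighv14-2: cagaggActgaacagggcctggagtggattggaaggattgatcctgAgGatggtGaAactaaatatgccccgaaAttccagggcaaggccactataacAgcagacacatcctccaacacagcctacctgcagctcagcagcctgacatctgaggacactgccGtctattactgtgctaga

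The 4 libraries held 11754 to 20368 cell barcodes and 63889853 to 127772838 UMIs (unique molecules counted). V gene UMIs were found for 225 of the 348 members, and 113 had at least 20 UMIs over the 4 libraries. The 20275 V UMIs of kept cells lay almost wholly in the intestine, with 14434 in the untreated and 5370 in the NPs library, against 44 and 427 in the brain. Detected members numbered 218 in the untreated intestine, 137 in the NPs intestine, 17 in the untreated brain and 49 in the NPs brain. By locus 119 of 185 Ighv, 103 of 160 Igkv and all 3 Iglv genes had a UMI. Genes annotated as pseudogenes held 532 UMIs, and 33 of 130 were detected. Ighv3-2 and Ighv1-14, both typed as pseudogenes in the reference, led them with 162 and 142 UMIs. The reference is that of C57BL/6J mice, a strain other than those the labels list. The part of strain differences in any V gene or constant gene count, and so in any isotype named below, was not tested.

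The 16855 and 10556 kept intestinal cells (untreated and NPs) were clustered without any immunoglobulin gene, so that V usage had no part in the classes. A plasma cell-like cluster, with 11 of 12 plasma markers raised and Jchain as its leading gene, held 185 cells of the untreated library (1.10%, 0.946 to 1.27%) and 121 of the NPs library (1.15%, 0.952 to 1.37%). With immunoglobulin genes among the clustering genes the plasma cell-like cluster held 578 untreated cells (3.43%) and 119 NPs cells. The near-equal shares of the libraries thus depended on the clustering. B cell-like and germinal centre B cell-like cells together made up 15.3% of the untreated library and 0.0284%, 3 cells, of the NPs library, so B cell usage is described for the untreated intestine alone. The intestinal libraries also differed outside the B lineage, with 16.7% and 46.6% of barcodes above the limit of 20% mitochondrial UMIs. Posterior Hox genes, which mark position along the gut, gave 77.2% of Hox UMIs in the untreated and 9.81% in the NPs library, and different clusters held most of the absorptive cells of each. Treatment, gut segment and animal therefore cannot be told apart in any difference below. The same holds for strain and age, which the labels assign to no library. Library pairs shared 35 to 104 cell barcodes.

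Each plasma cell held few V UMIs beside its constant gene UMIs. In the untreated library heavy chain V UMIs per cell ranged from 0 to 123 with a median of 5, and light chain V UMIs from 0 to 447 with a median of 30. In the NPs library they ranged from 0 to 41 with a median of 4, and from 0 to 168 with a median of 15. Light V UMIs came to 1.33 and 0.920 per 100 light constant UMIs, and the median depth of the plasma cells was 11056 and 6531 UMIs. Summed over the class, heavy V genes were at 954 and 1039 CPM (UMIs per 1000000 UMIs of the class), Igkv genes at 1847 and 1934, and Iglv genes at 2955 and 1375. Heavy and kappa V levels were thus close in both libraries, and the lambda V level was lower in the NPs library. The highest count of 1 V gene in 1 cell was 418 UMIs of Iglv1, or 2.30% of the UMIs of that cell, followed by 164 UMIs of Igkv3-7.

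Most plasma cells were dominated by 1 V gene per chain, counted as over 50% of the V UMIs of that chain in cells with at least 10 of them. A heavy V gene dominated 46 of 60 evaluable cells in the untreated library (76.7%, 64.0 to 86.6%) and 36 of 44 in the NPs library (81.8%, 67.3 to 91.8%). A light V gene, kappa or lambda, dominated 121 of 140 (86.4%, 79.6 to 91.6%) and 64 of 69 (92.8%, 83.9 to 97.6%). The intervals of both libraries overlap for each chain. Among Igkv UMIs alone, a view chosen after the data were seen, 119 of 121 and 60 of 61 cells were dominated (98.3% and 98.4%), with a median leading share of 97.1% and 95.8%. Independent of any threshold, 2 heavy V UMIs drawn from the same cell came from the same gene with a mean chance of 58.0% in 147 cells and 59.4% in 82 cells, against 2.55% and 3.49% for UMIs pooled over cells. For Igkv the within-cell chance was 85.6% and 85.03%, against 3.52% and 4.94% pooled. Over all light V genes the contrast was smaller, 57.8% and 62.9% within cells against 35.3% and 17.3% pooled. Iglv1 alone gave 59.0% and 39.5% of the pooled light V UMIs, so a light chain share above 50% sets a cell less apart from the pool. A stricter threshold of 80% of the UMIs left 25 of 60 and 21 of 44 cells dominated in the heavy chain and 40 of 140 and 23 of 69 in the light chain.

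**Figure D1:**
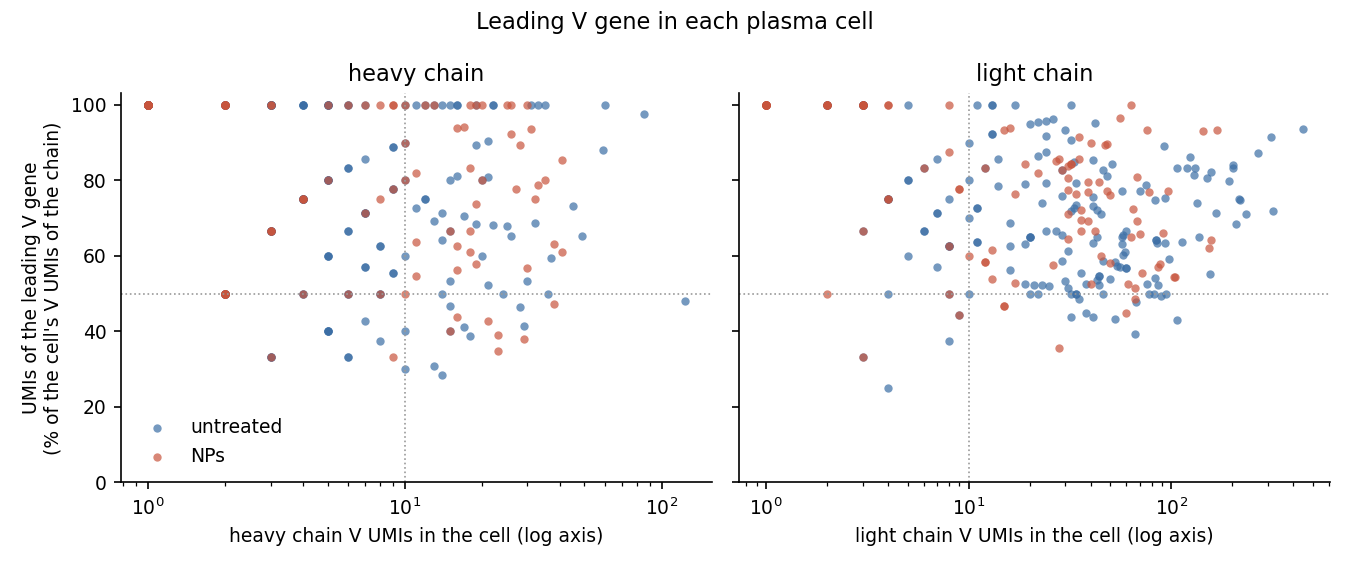
Share of the leading V gene (vertical axis, % of the V UMIs of the chain) against the V UMIs of that chain (log axis) in each plasma cell, 1 point a cell, with dotted lines at 10 UMIs and 50%. Right of the vertical line 46 of 60 untreated and 36 of 44 NPs cells lie above 50% for the heavy chain, and 121 of 140 and 64 of 69 for the light chain.

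Where a plasma cell held UMIs of more than 1 heavy V gene, those genes were close relatives in all but 2 of the cells compared. A runner-up heavy gene with at least 2 UMIs was present in 43 of 60 evaluable cells of the untreated and 32 of 44 of the NPs library, and held a median of 26.7% and 21.5% of the heavy V UMIs. The leading and runner-up genes were of the same family in 29 of 31 and 29 of 29 cells in which both had a coding sequence, and their sequences were identical at a median of 94.3% (57.8 to 96.6%) and 93.2% (83.2 to 98.6%) of aligned bases. Over all 6555 pairs of the 115 Ighv genes with a coding sequence, the median identity was 59.2%, with the middle 50% of pairs between 56.4 and 75.8%. Counted by family in place of gene, 60 of 60 and 44 of 44 cells were dominated. The commonest pairs were Ighv9-3 with Ighv9-1 in 3 and 4 cells and Ighv14-3 with Ighv14-2 in 2 and 4 cells, both printed above. For Igkv a runner-up gene was present in 42 of 121 and 28 of 61 cells, and identity varied widely. It was at least 90% in 13 of 40 and 17 of 28 cells. Among them were Igkv1-110 with Igkv1-117 in 4 and 10 cells and Igkv3-10 with Igkv3-5 in 5 and 3 cells. The remaining pairs lay between 59.2 and 89.1%, while the median of all Igkv pairs was 63.1%. A gene-level count in such families is therefore uncertain, because reads of a close copy, or of a mutated or other-strain allele, can be counted for either gene.

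**Figure D2:**
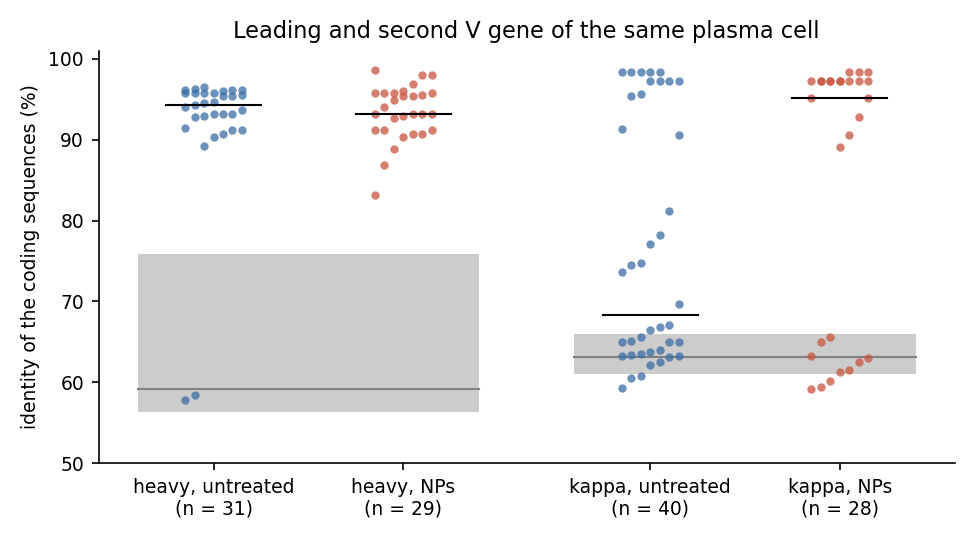
Identity of the coding sequences (%) of the leading and runner-up V gene of the same plasma cell, 1 point a cell, with black bars at medians and grey bands for the middle 50% of all gene pairs of the locus (grey line, median). Heavy chain points lie near the medians of 94.3 and 93.2%, above the band in all but 2 cells, while kappa points spread from 59.2 to 98.3%.

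Iglv1, a lambda V gene, had the most UMIs and dominated the most plasma cells among light V genes. Most cells it dominated carried kappa constant transcripts, so it was not shown to be the light chain V gene in use there. In the untreated library Iglv1 dominated 59 of 121 plasma cells with a dominant light V gene (48.8%, 39.6 to 58.0%). In the NPs library the count was 15 of 64 (23.4%, 13.7 to 35.7%). Igkc, the kappa constant gene, was the most abundant light constant gene in 56 of the 59 and in 14 of the 15. In the 59 untreated cells median UMIs were 4771 for Igkc and 45 for Iglv1, and lambda constant genes made up a median of 0.880% of light constant UMIs. In the 61 untreated cells dominated by an Igkv gene, the median was 4 Iglv1 UMIs and 51 cells held at least 1. By constant genes only 6 of 185 cells (3.24%, 1.20 to 6.92%) and 9 of 116 (7.76%, 3.61 to 14.2%) were lambda cells, while by dominant V gene 60 of 121 (49.6%) and 15 of 64 were. The 2 ways of calling a lambda cell thus gave different orders of the libraries, though the intervals by constant genes overlap. They also counted different cells, those with a dominant light V gene or those with at least 10 light constant UMIs.

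Iglv1 UMIs were not spread evenly over kappa cells. Across cells with Igkc as the leading light constant gene Iglv1 stood at 7.98 UMIs per 1000 Igkc in the untreated and 3.54 in the NPs library, while Igkv genes together stood at 5.28 and 5.57. Of 179 such untreated cells 143 held Iglv1 UMIs, with a highest count of 418, and of 111 such NPs cells 72 did, with a highest count of 157. Where an Iglc gene led (6 and 9 cells) Iglv1 stood at 10.8 and 8.47 per 1000 Iglc1 UMIs. The ratio of Iglv1 to Igkc differed between cell classes of the untreated library. It was 8.11 per 1000 in plasma cells, 2.10 in B cells, 1.17 in germinal centre B cells and 4.98 in cells of all other classes. The other lambda genes stayed low, with 220 and 66 UMIs of Iglv3 and 21 and 8 UMIs of Iglv2 in plasma cells against 5527 and 1421 of Iglv1. Iglv2 and Iglv1 are 96.9% identical over the coding sequence, so some of their UMIs may be exchanged. What the Iglv1 UMIs of kappa cells derive from was not tested.

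**Figure D3:**
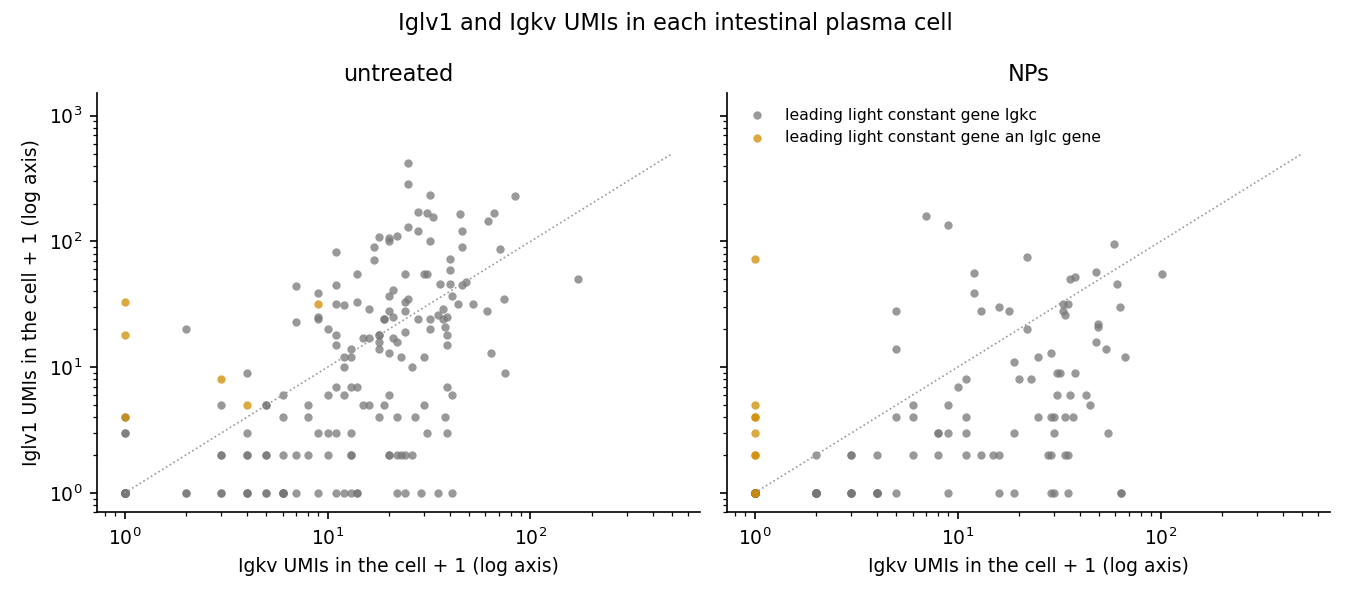
Iglv1 UMIs against all Igkv UMIs in each intestinal plasma cell, both plus 1 on log axes, coloured by the leading light constant gene, with a dotted line of equal counts. Many cells led by Igkc lie at or above the line, with Iglv1 counts up to 418 in the untreated and 157 in the NPs library, while cells led by an Iglc gene (6 and 9) hold few Igkv UMIs.

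The largest library difference in the dominant light V gene was that of Iglv1, 25.3 percentage points lower in the NPs library (-37.7 to -10.7). Lambda cells by constant genes were not fewer there, at 7.76% against 3.24% in the untreated library. Within cells whose leading heavy constant gene was Igha the Iglv1 difference was -20.4 points (-35.3 to -3.81). Iglv1 was dominant in 30 of 68 untreated and 14 of 59 NPs cells of that kind. Igkv1-110 went the other way, dominant in 1 of 121 and 6 of 64 cells, 8.55 points higher (2.32 to 18.2). Among Igkv UMIs alone Igkv1-110 led 5 of 119 and 10 of 60 cells, and its close copy Igkv1-117 led 9 and 2. The differences of Igkv1-117 (6 and 1 cells by the count over all light V genes), Igkv12-44 (5 and 2) and Igkv3-10 (6 and 4) had intervals that include 0. Igkv3-4 and Igkv12-46 each dominated 2 and 3 cells, and Igkv8-30 2 and 2. In all 32 light V genes were dominant in the untreated and 29 in the NPs library, of which 17 were shared, 53.1% of the former and 58.6% of the latter. The chance that 2 cells of a library shared their dominant light V gene was 24.4% and 6.99%, and without Iglv1 3.33% and 3.06%.

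No heavy V gene was used by more than 5 cells of a library. Ighv14-3 and Ighv9-3 were each dominant in 2 of 46 untreated and 5 of 36 NPs cells (4.35% and 13.9%), a difference of 9.54 points whose interval, -3.29 to 24.6, includes 0. Ighv3-2 dominated 5 and 2 cells, a difference of -5.31 points (-18.1 to 8.69). Ighv1-47 dominated 4 untreated cells and 0 NPs cells, Ighv6-3 and Ighv5-4 each 1 and 3, Ighv4-1 3 and 0, and Ighv2-9 and Ighv1-9 each 0 and 3. Over all plasma cells every heavy V gene named here had an interval that includes 0. Within cells led by Igha, a view chosen after the data were seen, Ighv9-3 was 16.1 points higher in the NPs library (0.401 to 32.6), while the intervals of Ighv14-3 (-13.0 to 22.1) and Ighv3-2 (-23.1 to 11.1) included 0. Ighv3-2, Ighv1-2, Ighv1-14, Ighv4-2 and Ighv1-73, all typed as pseudogenes in the reference, dominated 10 of 46 and 2 of 36 cells, while no light V pseudogene dominated a cell. The libraries used 29 and 18 heavy V genes, 11 of them shared, and 18 and 10 of these genes were seen in 1 cell only. The chance that 2 cells of a library shared a heavy V gene was 2.61% and 5.40%.

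**Figure D4:**
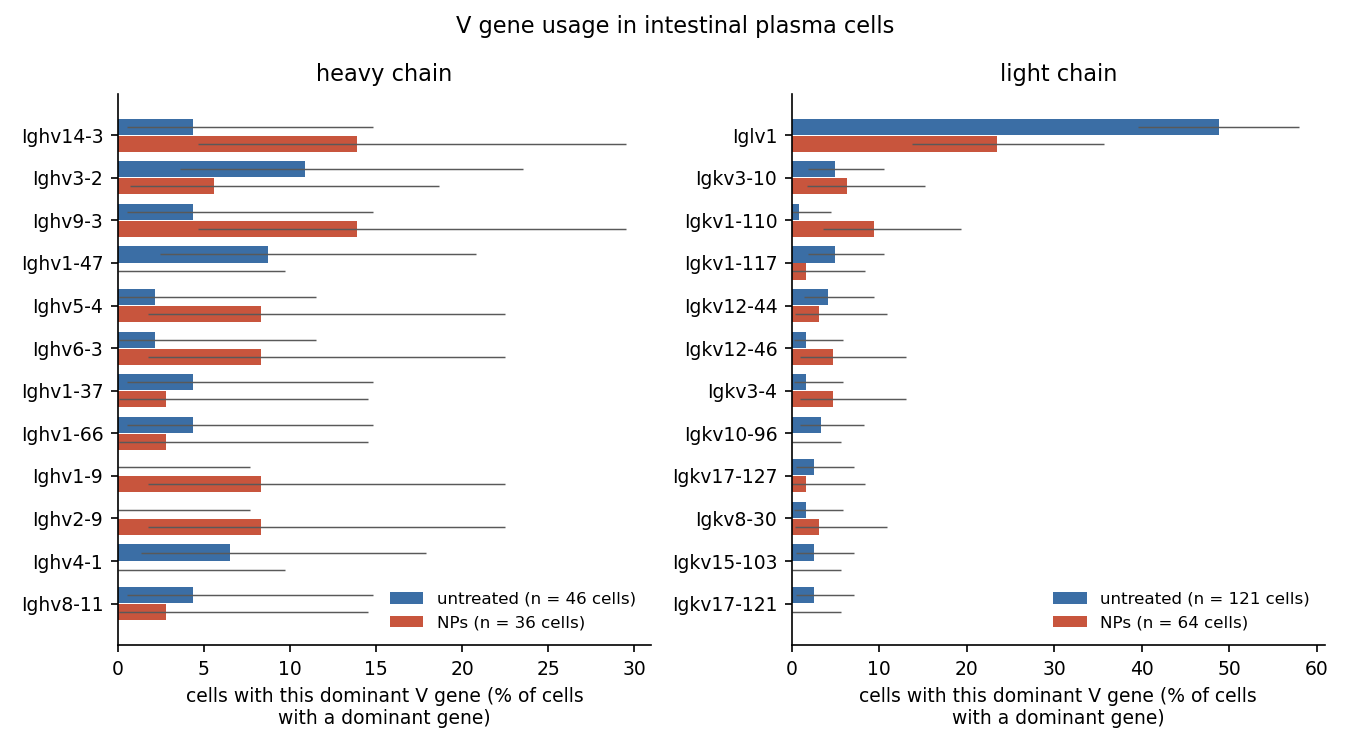
Share of plasma cells with each dominant V gene (horizontal axis, % of cells with a dominant gene of that chain) for the 12 genes with most cells per chain, bars starting at 0 with 95% exact binomial intervals. Iglv1 stands apart at 48.8% and 23.4%, and for the heavy chain the intervals of both libraries overlap for every gene shown.

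By summed UMIs V genes lay on both sides of the plasma cell comparison, and many large ratios came from 1 cell. Of 88 members with at least 20 UMIs in the higher library, 21 were at least 2-fold higher in NPs plasma cells and 35 at least 2-fold lower. Over all 4826 genes that met the same minimum, 11.7% were higher and 6.92% lower, against 23.9% and 39.8% of these members. The median log2 ratio was -0.53 over these members and -0.01 over all genes. In 11 of the 21 higher and 19 of the 35 lower members, over 50% of the UMIs of the higher library lay in 1 cell. The 9 heavy and 12 light members that were higher included Igkv5-43, at 8.20 and 153 CPM (18.6-fold, 11.1 to 33.3), 60.8% of it in 1 cell, and Igkv2-112, with 0 and 54 UMIs (at least 32.3-fold with 3 counts in place of 0, lower 95% limit of the ratio 25.4). Ighv1-9 was at 5.63 and 51.5 CPM (9.14-fold, 4.74 to 19.3), and its largest cell held 35.7%. The lower members included Igkv3-7, with 187 and 0 UMIs (at least 34.7-fold by the same floor, lower limit 28.0), 87.7% of it in 1 cell, and Ighv1-47, with 139 and 0 UMIs (at least 25.8-fold, lower limit 20.7), 59.7% in 1 cell. Iglv1 was at 2832 and 1307 CPM, 2.17-fold lower (2.04 to 2.30), and its largest cell held 7.56% and 11.05%, so that difference did not rest on 1 cell.

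Dominant heavy and light V genes occurred together in many combinations. A dominant gene of each chain was called in 37 and 32 plasma cells, which carried 32 and 25 different pairs. In the untreated library Ighv3-2 with Iglv1 was held by 3 cells, and Ighv1-47 with Igkv12-44, Ighv14-3 with Iglv1 and Ighv4-1 with Igkv3-10 by 2 each. In the NPs library Ighv14-3 with Igkv3-4 was held by 3 cells, and Ighv1-15 with Igkv3-12, Ighv14-3 with Iglv1, Ighv6-3 with Igkv1-110, Ighv9-3 with Igkv2-112 and Ighv9-3 with Iglv1 by 2 each. The chance that 2 cells of a library shared a pair was 0.901% and 1.61%. Igkc led the light constant UMIs of 56 of the 59 and 14 of the 15 cells dominated by Iglv1. Pairs with Iglv1, which count in these figures, may therefore not be the chains of the antibody made. Counts hold no junction sequence, so cells with the same pair cannot be told from cells of the same clone.

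The isotype of the plasma cells differed between the libraries. Igha, the IgA constant gene, led the heavy constant UMIs of 103 of 185 untreated cells (55.7%, 48.2 to 63.0%) and of 107 of 116 NPs cells with at least 10 light constant UMIs (92.2%, 85.8 to 96.4%). Ighg2b led 32 and 3 cells, Ighg2c 23 and 3, and Ighm and Ighg3 each 12 and 1. In the untreated library Ighv3-2 was found in 3 Igha and 2 Ighg2b cells. Ighv9-3 was found in 2 Ighg2b cells alone, and Ighv4-1 (3 cells), Ighv3-6, Ighv14-3 and Ighv2-2 (2 each) in Igha cells alone. In the NPs library all 5 Ighv9-3 cells and 4 of 5 Ighv14-3 cells carried Igha.

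By family Ighv1, the largest with 93 members, supplied the dominant heavy gene of 17 of 46 and 11 of 36 cells (37.0% and 30.6%). Ighv3 with 8 members supplied 8 and 2 cells, Ighv2 6 and 4, Ighv14 2 and 5 and Ighv9 2 and 5. Among kappa families Igkv3 supplied 13 of 121 and 12 of 64 cells, Igkv1 8 and 9, Igkv12 7 and 6 and Igkv6 6 and 4. The Ighv genes on chromosome 12 were ranked by distance from Ighj1 and cut into 4 bins of equal number. The bin nearest the J genes (143 to 664 kb) supplied 19 of 46 untreated cells (41.3%, 27.0 to 56.8%) and 15 of 36 NPs cells (41.7%, 25.5 to 59.2%), and 30 of its 47 genes are typed functional. The next bin outward supplied 11 and 13 cells (23.9% and 36.1%), and the one after it 6 and 3 (13.0% and 8.33%). The farthest bin, with 31 functional genes of 46, supplied 10 and 5 cells (21.7% and 13.9%). Of the Igkv genes on chromosome 6, ranked by distance from Igkj1 and counted among Igkv UMIs alone, the nearest bin supplied 50 of 119 and 22 of 60 cells (42.0% and 36.7%) and the farthest 36 and 21 (30.3% and 35.0%). The bins between them supplied 12.6 to 15.1% and 8.33 to 20.0%, and 34 genes of the nearest bin are typed functional against 22 in each of the others. Kappa genes on the plus strand gave 65 of 119 and 34 of 60 cells. This is the orientation of the J genes, to which they join by deletion. Those on the minus strand, which join by inversion, gave 54 and 26 cells, although 62 of the 100 functional Igkv genes lie there.

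B cells of the untreated intestine held far fewer V UMIs than plasma cells. Of 1632 B cell-like cells 1398 had 0 heavy V UMIs and 1303 had 0 light V UMIs, and of 950 germinal centre B cell-like cells 831 and 534 did. With at least 3 V UMIs required, a heavy gene dominated 10 of 13 cells (76.9%, 46.2 to 95.0%) and a light gene 48 of 75 (64.0%, 52.1 to 74.8%), germinal centre B cells giving 8 of the 13 and 64 of the 75. Within a cell 2 heavy V UMIs came from the same gene with a mean chance of 59.3% (54 cells) and 2 Igkv UMIs with 50.6% (160 cells), against 2.13% and 3.04% pooled. The 10 heavy-dominated cells used 10 genes, among them Ighv1-9, Ighv2-2, Ighv3-2, Ighv4-1 and Ighv4-2. The leading light genes were Igkv19-93 in 6 of 48 cells, Iglv1 in 5, Igkv1-135 and Igkv1-35 in 4 each and Igkv12-44 in 3. Igkv19-93 dominated no plasma cell by the count over all light V genes, and 1 cell of each library among Igkv UMIs alone. Iglv1 was less frequent in B than in plasma cells of the same library, with a difference of -38.3 points (-48.9 to -23.7). At resolution 2, where the B classes hold 21.3% of kept cells, this difference was -12.4 points (-25.1 to 1.11), and with at least 5 V UMIs in both classes -28.2 (-44.2 to 12.3), so both intervals include 0.

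Other genes of antibody production were compared in plasma cells by the same 2-fold rule. Over all tested genes 11.7% were higher and 6.92% lower in the NPs library. Of 11 tested constant genes of 12, none was higher and 7 were lower, among them Ighm (5756 and 148 CPM, 38.9-fold) and Ighg3 (4258 and 268 CPM, 15.9-fold), while Igkc stood at 349117 and 347633 CPM and Igha at 65894 and 110847 CPM. Of 12 secretory genes, all tested, 0 were higher and 1, Mzb1, was lower, a share near that of all genes. Jchain, which links IgA dimers, stood at 41428 and 38947 CPM and Xbp1, a driver of the secretory programme, at 471 and 719 CPM. Vpreb3, which was only listed beside the surrogate light chain genes, was 3.81-fold lower. The 3 surrogate light chain genes themselves and the 3 recombination genes (Rag1, Rag2, Dntt) had no UMI in plasma cells. None of 12 joining genes and none of 6 hypermutation and switching genes reached 20 UMIs.

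V UMIs were also counted in the cells not named B, germinal centre B or plasma, referred to here as outside the B lineage. B lineage cells may remain among them. An unnamed cluster with 2893 untreated cells had Cd79a and Jchain among its leading genes. In the NPs library 1 cell of the NK or ILC class held 134 of the 137 V UMIs of that class. In intestinal cells of all other classes V genes stood at 17.0 CPM in the untreated library (1678 UMIs, 16.2 to 17.9) and 5.89 in the NPs library (639 UMIs, 5.44 to 6.36), against 5756 and 4348 CPM in plasma cells. At least 1 V UMI was found in 7.29% of 14088 and 3.09% of 10432 such cells, with median depths of 2410 and 6277 UMIs. Iglv1 led in both, with 560 and 174 UMIs, followed by Igkv1-135 (103), Igkv3-2 (49), Igkv6-23 (45) and Igkv15-103 (40) in the untreated and Igkv2-112 (61), Igkv8-21 (47), Ighv1-82 (23) and Ighv3-2 (22) in the NPs library. Cells with 10 or more V UMIs held 136 of the 1678 and 300 of the 639. Without those cells the levels were 15.7 and 3.13 CPM. In the untreated library the share of Iglv1 among light V UMIs outside the B lineage, 42.3%, lay nearer to that of plasma cells (59.0%) than of B cells (14.0%). In the NPs library it was 38.2%, against 39.5% in plasma cells. There 4 cells held the 300 V UMIs given above, and no B cell share could be read.

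In the brain 20 of 11333 untreated cells (0.176%, 0.108 to 0.272%) and 56 of 11942 NPs cells (0.469%, 0.354 to 0.608%) held at least 10 light constant UMIs. Of these 18 and 50 lay in the B cell-like cluster, and no brain cluster was plasma cell-like. By a split chosen after the data were seen, 1 and 6 cells held at least 200 light constant UMIs, with 84 and 146 the highest count below it. The remaining 19 and 50 cells held 15 and 26 V UMIs in all, at most 3 in a cell, from 9 and 24 V genes, and Ighm led the heavy constant UMIs of 12 and 33 of them. Their V usage could not be read at this depth. The 1 and 6 richest cells held 25 of 44 and 390 of 427 V UMIs of the brain libraries (56.8% and 91.3%).

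The heavy V UMIs of each of the 7 richest brain cells were led by 1 gene or its close relatives, in cells with at least 3540 light constant UMIs. The untreated cell carried Igha and 8 UMIs of Ighv1-14, all of its heavy V UMIs, and its 17 light V UMIs were split over Iglv1, Igkv6-13 and Igkv6-15 (4 each), Igkv6-17 (3) and Igkv6-23 (2). Cell 1 of the NPs brain carried Igha, Ighv9-3 (15 UMIs), Ighv9-1 (10) and Ighv9-2 (5), and Igkv1-117 (40), Iglv1 (20), Igkv1-110 (10) and Iglv3 (6). Both of its kappa genes and 2 of its 3 heavy genes belong to pairs printed above. Cell 2 carried Ighg2c and Ighv5-12, with 18 of 18 heavy V UMIs, and Iglv1 (45) nearly level with Igkv6-32 (44), while Igkc gave 7141 of its 7271 light constant UMIs. Cell 3 carried Ighg2c and Ighv14-3 (21 of 24), and its light V UMIs were spread over Igkv3-4 (17), Igkv3-12 (7), Igkv3-3 (4), Igkv3-9 and Igkv3-5 (3 each) and further genes. Cell 4 carried Igha, Ighv1-64 (13 of 13) and Igkv3-7 (43 of 58). Cell 5 carried Ighg2c and Ighv14-3 (5 of 5). Its 12 light V UMIs were led by Igkv3-3 (4), with Igkv3-4 and Igkv3-5 (2 each) and Igkv3-12 (1) among the rest. Cell 6 carried Ighg2b, Ighv14-3 (9 of 9) and Igkv8-24 (8 of 14). Ighv14-3 thus led in 3 of the 6 NPs cells, with Igkv3-4, Igkv3-3 and Igkv8-24 as the leading kappa genes. Cells 3 and 5 both carried Ighg2c and shared Igkv3-3, Igkv3-4, Igkv3-5 and Igkv3-12. As counts within such a family are uncertain, their different leading kappa genes do not show different light chains.

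**Figure D5:**
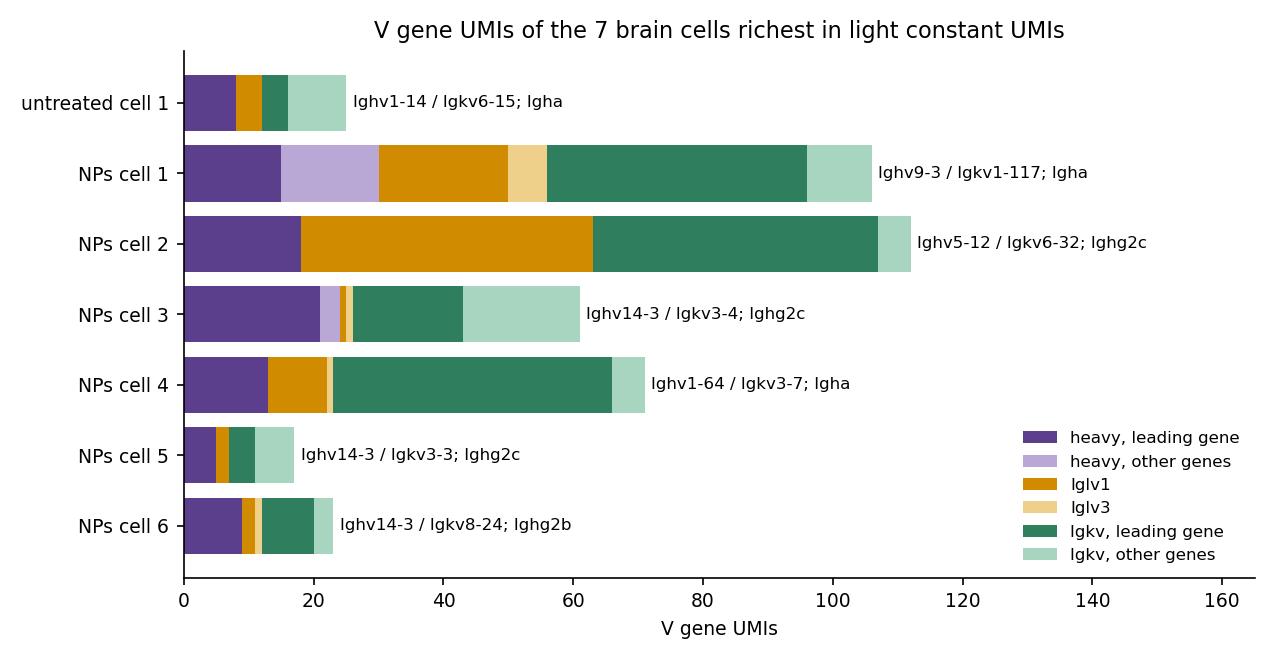
V gene UMIs (horizontal axis) of the 7 brain cells with at least 200 light constant UMIs, split into the leading and other heavy genes, Iglv1, Iglv3, and the leading and other kappa genes. Labels give the leading heavy and kappa genes and the leading heavy constant gene, and in the untreated cell Igkv6-13 and Igkv6-15 tie at 4 UMIs. Iglv1 UMIs appear in every cell, from 1 to 45, although Igkc led the light constant UMIs of each.

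Jchain ranged from 297 to 2146 UMIs, and 7 to 9 of 9 plasma markers had a UMI in these cells. B cell markers were present too, 3 to 5 of 8 in each cell, with 7 to 130 UMIs in all and the most in NPs cell 3. Microglia markers, for cells that make up much of these libraries, summed to 3 to 13 UMIs over 6 genes. The 7 cells held 16032 to 31942 UMIs, against library medians of 4996 and 4614, and lay in a T cell-like cluster (the untreated cell and NPs cell 4, with 8 and 23 UMIs of 4 T cell markers), a macrophage or monocyte-like cluster (NPs cells 1, 2 and 5), the B cell-like cluster (cell 3) and an unnamed cluster (cell 6). The part of doublets, or of blood left in the tissue, in these cells was not tested. The barcode of NPs cell 1 was also present in the NPs intestinal library, where it belonged to an absorptive cell with 11792 UMIs and 0 V UMIs. Leaving out barcodes present in another library gave 20 and 54 cells with at least 10 light constant UMIs. Outside the B cell-like cluster and cells with 10 or more V UMIs, V genes stood at 0.0596 and 0.180 CPM in the brain libraries.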

How the data were processed

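Gene counts per cell barcode, deposited by the authors as unnormalised whole-number UMI counts, had been made with Cell Ranger 5.0.1 on GRCm38, per the submitters' processing notes. Kept barcodes had 500 UMIs or more over at least 200 genes, with a mitochondrial share of 20% or less. Doublets called by Scrublet at its own threshold were removed from the brain libraries (335 and 247 cells). That threshold marked at most 0.0354% of intestinal cells, so those with a doublet score of 0.25 or more were removed there (112 and 91). Each tissue was clustered over both of its libraries (scanpy 1.11.5, 2000 variable genes without immunoglobulin genes, 30 principal components, 15 neighbours, Leiden resolution 1), and clusters were named from marker lists with at least 3 markers raised 2-fold. A V gene was dominant above 50% of the V UMIs of a chain, in plasma cells with at least 10 and B cells with at least 3 of them. Levels are CPM of summed UMIs, and a 2-fold difference was counted where the higher library held at least 20 UMIs, with 3 counts in place of 0 for bounds. Shares have exact binomial, ratios conditional binomial, levels exact Poisson and differences Newcombe intervals at 95%. They cover counting error only. The summing and fold steps were tested on simulated data with known changes.

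Sequences and gene types came from GENCODE M21, which holds 218 members with a coding sequence. Named genes are those dominant in most plasma or B cells, those differing most between libraries in cells, the commonest pairs, the leading genes of other cells and the immunoglobulin-rich brain cells. The examples of summed UMIs and the close-copy pairs were chosen after their values were seen. The members and lists were chosen with earlier results of these data known. Alternatives varied the thresholds, mitochondrial limit, doublet removal, clustering and cells counted. Those by V gene family, by Igkv alone, by leading constant gene, without cells of 10 or more V UMIs, at 200 light constant UMIs and without shared barcodes were chosen after seeing the data. The receptor signalling list is not reported here.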

Additional observations from a re-analysis of the deposited data

Results flagged for a closer look

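The V gene level of the whole library differed in opposite directions in the 2 tissues. V genes were at a CPM of 129.5 in the untreated and 49.0 in the NPs intestine, a ratio of 0.378 (0.366 to 0.390), and 0.655 in the untreated and 6.93 in the NPs brain, a ratio of 10.6 (7.75 to 14.8). In the intestine plasma cells held 11235 and 4728 of the V UMIs, at 5756 and 4348 CPM of the class, with 1.10% and 1.15% of the kept cells and median depths of 11056 and 6531 UMIs. B and germinal centre B cells held 1521 and 3 V UMIs, with 15.3% and 0.0284% of the cells, and all other cells 1678 and 639. In the brain 6 cells held 390 of the 427 V UMIs of the NPs library. With 1 library a group the difference between the tissues was not tested, and the length of treatment differed as well, 1 week against 2 months.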

How the results depend on the processing

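Of 229 recomputed values, 194 were counted as unchanged and 35 as moved, and 0 of those with an interval excluding 0 changed sign. Unchanged meant inside the counting interval, or within 1.5 times for a count. The 7 log2 ratios of CPM were compared by sign alone, and 6 of them kept it. Among differences whose interval includes 0, Igkv1-117 (-3.40 points) and Igkv12-44 (-1.01) changed sign by share of summed V UMIs, to 0.564 and 1.24 points, and Igkv12-44 also by CPM, with a log2 ratio of 0.32. With at least 50 UMIs, 11 V genes were 2-fold higher and 15 lower in NPs plasma cells, and with no minimum beyond 3 UMIs 46 were higher and 48 lower. Dominance at 80% held in 41.7% and 47.7% of plasma cells for heavy chains (untreated and NPs), 28.6% and 33.3% for light chains, and 30.8% and 24.0% of B cells for heavy and light chains. At the main threshold of over 50%, dominance was 100% and 100% by heavy families and 98.3% and 98.4% among Igkv UMIs. At that threshold it was 85.7% for B cell light chains with at least 5 V UMIs. Lambda cells by constant genes were 3.24% and 7.76%. With a mitochondrial limit of 10% B classes made up 17.4% and NPs plasma cells 1.50%. With no limit untreated plasma cells made up 0.931%, B classes 13.9% and NPs plasma cells 0.618%. Clustered with immunoglobulin genes untreated plasma cells made up 3.43%, and at resolution 2 B classes made up 21.3%, with Iglv1 12.4 points lower in B than in plasma cells (-12.4). V levels outside the B lineage in the intestine were 14.4 and 4.23 CPM in absorptive and goblet cells, 9.21 and 3.15 with cells of at most 1 V UMI of a chain left out, and 15.7 and 3.13 without cells of 10 or more V UMIs, where the brain stood at 0.0596 and 0.180. At 200 light constant UMIs 1 and 6 brain cells were immunoglobulin-rich. The cause of these shifts was not tested.

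No paired analysis was possible because each group has 1 library and the labels give no replicate numbers. Depth limits heavy chain calls to 60 and 44 plasma cells and B cell calls to 13 heavy and 75 light chains. Reads of close copies, or of alleles that differ from the reference strain, may be counted for another gene or not at all, which gene counts cannot show.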
